A study of Homo sapiens with 6 samples.

Results

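DGKH and 5 other diacylglycerol kinase genes, DGKA, DGKD, DGKE, DGKQ and DGKZ, were examined in RNA-Seq data from HCT116, an established line of human colorectal cancer cells. The 6 genes were found by their names among the 50868 genes of the deposited expression table, in which 4 further family genes, DGKB, DGKG, DGKI and DGKK, are listed. HCT116 cells had been transfected with the YY2 overexpression plasmid (pcYY2) or with its control plasmid (pcCon), and 3 samples of each group were sequenced. YY2 is a zinc-finger transcription factor closely related to YY1, and the study asked which genes it regulates in tumor cells. The expression came from a plasmid in a single cell line, and the share of cells that took it up was not analysed here. DGKH was chosen because its level differed strongly between these same samples, so that its difference between pcYY2 and pcCon is given as a description without a p value, and the other 5 genes are treated likewise.

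Diacylglycerol kinases phosphorylate diacylglycerol, a lipid messenger in membranes, to phosphatidic acid. Diacylglycerol recruits and activates proteins with a C1 domain, such as protein kinase C, protein kinase D and RASGRP proteins, whereas phosphatidic acid is both a messenger of its own and a precursor of phospholipids. The kinases therefore end one lipid signal and start another, and their isoforms differ in the domains that surround a shared catalytic domain. DGKD and DGKH encode the isoforms delta and eta, which carry a pleckstrin homology domain. DGKA encodes the calcium-regulated isoform alpha, DGKE the isoform epsilon, which prefers diacylglycerol with an arachidonoyl chain, DGKZ the isoform zeta with ankyrin repeats, and DGKQ the isoform theta.

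As pcYY2 carries a DNA-binding factor, the promoters of the genes that differed most between the groups are shown first. The RefSeq windows on GRCh38.p14 run from 250 bases before to 50 bases after an annotated start and are given 5′ to 3′ on the gene's strand. DGKH has a window at an upstream start (chr13:42039820-42040119, plus strand) and a window at a downstream start (chr13:42048398-42048697, plus strand). DGKE, whose level was lower in pcYY2, has a single window (chr17:56833901-56834200, plus strand). The DGKA window (chr12:55927066-55927365, plus strand) is shown since it is the other family window with the longer motif. Capitals mark matches to GCCATNTT, an extended form of the element recognised by YY1 and YY2, in which the core GCCAT is contained, searched on both strands.
DGKH upstream start: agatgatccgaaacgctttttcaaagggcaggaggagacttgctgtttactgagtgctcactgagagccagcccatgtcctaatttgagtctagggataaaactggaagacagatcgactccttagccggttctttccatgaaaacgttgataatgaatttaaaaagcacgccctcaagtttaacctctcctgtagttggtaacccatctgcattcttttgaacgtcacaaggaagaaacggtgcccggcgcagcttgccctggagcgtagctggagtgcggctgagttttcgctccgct
DGKH downstream start: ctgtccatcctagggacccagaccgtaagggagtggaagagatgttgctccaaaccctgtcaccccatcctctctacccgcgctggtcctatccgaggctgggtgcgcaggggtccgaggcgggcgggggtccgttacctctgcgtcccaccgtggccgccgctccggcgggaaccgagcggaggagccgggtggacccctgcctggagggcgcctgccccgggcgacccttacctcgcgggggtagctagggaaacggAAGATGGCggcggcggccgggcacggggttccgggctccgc
DGKA: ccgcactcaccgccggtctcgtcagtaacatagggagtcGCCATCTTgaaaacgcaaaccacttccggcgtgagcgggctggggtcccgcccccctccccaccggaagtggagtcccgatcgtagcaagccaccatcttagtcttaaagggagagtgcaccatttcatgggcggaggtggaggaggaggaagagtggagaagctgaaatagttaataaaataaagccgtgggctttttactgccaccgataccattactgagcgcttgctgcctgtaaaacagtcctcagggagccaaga
DGKE: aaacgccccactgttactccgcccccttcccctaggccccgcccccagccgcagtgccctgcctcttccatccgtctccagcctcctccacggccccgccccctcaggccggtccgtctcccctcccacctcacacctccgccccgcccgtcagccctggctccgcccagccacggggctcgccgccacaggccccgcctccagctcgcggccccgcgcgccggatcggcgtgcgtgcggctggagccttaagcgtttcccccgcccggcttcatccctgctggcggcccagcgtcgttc

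The downstream window of DGKH held 1 match to GCCATNTT, which reads AAGATGGC on the gene's strand and spans the bases from +10 to +17 of the transcript. The upstream window of DGKH held neither this motif nor the core GCCAT. In DGKA the match, GCCATCTT, began at -211, and the window of DGKE held neither motif. RefSeq windows were found for 9 of the 10 family genes, 23 windows in all, of which 8 held the core and 2 held the longer motif. Windows of a gene can overlap, and the 2 DGKI windows with the core share the same site. The core lay in windows of DGKA, DGKD, DGKH, DGKI, DGKK and DGKZ, and the longer motif in DGKA and DGKH. For comparison, 37.8% of 35116 promoter windows of all genes held the core and 6.58% held the longer motif. By gene, 43.1% of 27305 genes had a window with the core and 7.97% had one with the longer motif. These matches are descriptions of the sequence, and binding of YY2 to them was not measured in these data.

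The samples matched their labels in outline. Between 15158360 and 29572882 reads were counted per sample. YY2, the gene on the plasmid, had an FPKM (fragments per kilobase of gene, scaled to the total count) of 2.16 ± 0.397 (SD, n = 3) in pcCon and 11.2 ± 0.333 with pcYY2. Of 6 epithelial markers, EPCAM, KRT8, KRT18, KRT19 and CDH1 were well expressed, whereas VIL1 was close to 0. KRT8 and KRT19 were higher in pcYY2 (by 0.67 and 0.60 on the log2 scale, with edgeR's adjusted p of 0.0117 and 0.00209), which is given since it moves with the groups. The call of KRT8 was lost with the replicate number as a block (adjusted p = 0.0576, edgeR) and without pcCon-2 (0.0503). Of the markers of leukocytes, fibroblasts and endothelium, COL1A2 was at 0 in all samples and PTPRC, CD3E, PECAM1 and VWF had a mean FPKM of 0.0952 or less in both groups, with PTPRC highest at 0.244 in pcYY2-2, while COL1A1 had 2.04 in pcCon and 2.49 in pcYY2. Their part in the results below was not tested. The labels do not say whether the samples of a group came from separate cultures, so p values measure the spread between these samples.

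DGKH (ENSG00000102780, GRCh38 chromosome 13 from 42040036 to 42256578, plus strand) was a weakly expressed member of the family in control cells. In pcYY2 it ranked 4 in the family by the deposited FPKM, but 6 per kilobase of the longest coding transcript. Its FPKM was 0.514, 0.667 and 0.392 in pcCon-1 to pcCon-3 and 2.17, 1.83 and 2.15 in pcYY2-1 to pcYY2-3. These values rest on 213, 277 and 135 reads in pcCon and on 757, 1233 and 901 reads in pcYY2. The lowest pcYY2 sample lay well above the highest pcCon sample, and the groups did not overlap. The pcCon mean was 0.524 ± 0.138 (SD, n = 3), and that of pcYY2 was 2.05 ± 0.191 (SD, n = 3). On the log2 scale the groups differed by 1.98 (standard error 0.185), which corresponds to 3.93-fold. In bulk RNA, a different number of expressing cells and a different amount of RNA per cell cannot be told apart.

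The spread of DGKH among the controls was wide for this family. The highest pcCon sample was 1.70 times the lowest, against 1.18 times in pcYY2. YY2 itself ranked the pcCon samples in the same order, with an FPKM of 2.22, 2.52 and 1.73 in pcCon-1 to pcCon-3. In pcYY2 the order was not shared, as YY2 had 11.6, 11.1 and 11.0 there and DGKH was lowest in pcYY2-2. With 3 samples in a group no relation between both genes can be tested.

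**Figure D1:**
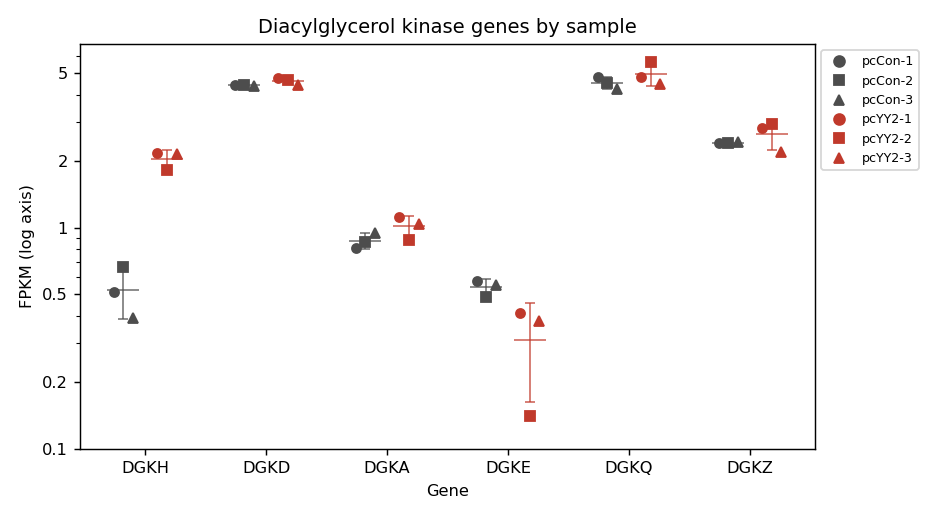
FPKM of the 6 diacylglycerol kinase genes on a log axis, with a point for each sample (marker shape, replicate number) and the mean and SD of the 3 samples of a group as a bar. DGKH lies between 0.392 and 0.667 in pcCon and between 1.83 and 2.17 in pcYY2, while DGKE is lower in pcYY2 and lowest in pcYY2-2 (0.140).

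DGKD (ENSG00000077044, chromosome 2 from 233354507 to 233472104), which encodes the isoform most closely related to DGKH in domain layout, was nearly level. Its FPKM was 4.41, 4.42 and 4.39 in pcCon and 4.78, 4.68 and 4.43 in pcYY2. All pcYY2 samples lay above the pcCon samples, pcYY2-3 only by a narrow margin. The log2 fold change was 0.09 (standard error 0.0507), so that the difference was small although the groups did not overlap. DGKK, the third gene of this type, had a single read in a single sample, pcYY2-2.

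DGKE (ENSG00000153933, chromosome 17 from 56834099 to 56869567) was the member that lay lower in pcYY2. Its FPKM was 0.576, 0.488 and 0.551 in pcCon and 0.410, 0.140 and 0.378 in pcYY2. The reads were 172, 146 and 137 in pcCon and 103, 68 and 114 in pcYY2, although pcYY2-2 was the deepest library. The groups did not overlap, and pcYY2-2 stood far below the other pcYY2 samples. The log2 fold change was -0.80 (standard error 0.353), and without pcYY2-2 it was -0.43 (standard error 0.141), so that this library decided much of its size. The same library held the most reads of the leukocyte gene PTPRC (69, against 1 to 15 in the others), whose part was not tested.

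DGKA (ENSG00000065357, chromosome 12 from 55927319 to 55954027) had an FPKM of 0.811, 0.861 and 0.947 in pcCon and 1.12, 0.882 and 1.04 in pcYY2. The groups overlapped, since pcYY2-2 lay below pcCon-3. The log2 fold change was 0.25 (standard error 0.109). DGKQ (ENSG00000145214, chromosome 4 from 958887 to 986895) had an FPKM of 4.79, 4.54 and 4.25 in pcCon and 4.79, 5.64 and 4.49 in pcYY2. These groups overlapped as well, and their log2 fold change was 0.15 (standard error 0.104).

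DGKZ (ENSG00000149091, chromosome 11 from 46332905 to 46380554) had an FPKM of 2.43, 2.41 and 2.44 in pcCon and 2.84, 2.96 and 2.20 in pcYY2. The pcCon samples were almost identical, while pcYY2 held both the highest and the lowest value. The log2 fold change was 0.15 (standard error 0.112), and 0.28 (standard error 0.062) without pcYY2-3. DGKZ also has a processed pseudogene, DGKZP1 (ENSG00000179611, chromosome 13 from 43968424 to 43971199), which was picked out after its values were seen. Its 2776 bases aligned to a DGKZ transcript with 98.7% identity. DGKZP1 was counted with 690, 763 and 595 reads in pcCon and 649, 1187 and 666 in pcYY2, which compares with 1000, 995 and 836 and with 986, 1980 and 915 reads for DGKZ. How reads that fit both were assigned is not stated, so the level of DGKZ is uncertain. For DGKZ and DGKZP1 summed, the log2 fold change was 0.09 (standard error 0.091).

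Of the 6 genes, DGKD, DGKH, DGKQ and DGKZ passed the filter of a mean FPKM of at least 1, and DGKA and DGKE entered only with a filter at 0.1. DGKH passed the first filter only through the pcYY2 samples. DGKH was the 1 gene called among the 4 tested with the first filter and among the 6 tested with the second. Over all genes, 9.37% of 12015 were called with the first filter (4.52% higher and 4.85% lower in pcYY2), and 4.82% of 18877 with the second, at an adjusted p of 0.05 or less. As the genes were chosen from this contrast, nothing is read from the count. The groups did not overlap in FPKM for 3 of the 6 genes (DGKD and DGKH higher, DGKE lower), against 29.8% of all genes with the second filter (11.8% higher and 18.0% lower). The median log2 fold change over the 4 genes of the first filter, without DGKE, was 0.15, beside 0.0020 over all genes tested. With the second filter it was 0.17 over the 6 genes, DGKE among them, beside -0.0003. Both family medians include DGKH, which was chosen from this contrast, so nothing is read from them.

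**Figure D2:**
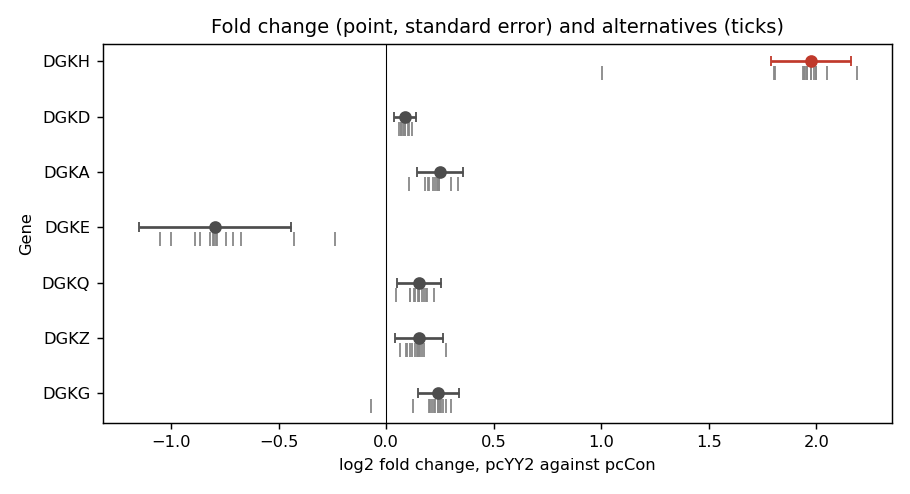
Log2 fold change of pcYY2 against pcCon for the 6 genes and DGKG, as a point with its standard error (edgeR, red where called), and the same value under each alternative as ticks under it. DGKH stays between 1.00, on the log2(FPKM + 1) scale, and 2.19, and a tick of DGKG at -0.07 comes from counts summed with those of ETV5.

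Several of the genes overlap other annotated genes. FHP1, a pseudogene on the same strand inside the last part of DGKH, had 12 reads over all samples, and the DGKH count summed with every gene that overlaps it had a log2 fold change of 1.95. PYM1, on the opposite strand, overlaps DGKA and had between 273 and 538 reads per sample. C17orf67 overlaps DGKE on the opposite strand with 170 reads in all, and SLC26A1 overlaps DGKQ on the same strand with 10 reads in all. In GENCODE 44, but not in the loci of the table, TRIM25 also overlaps DGKE on the opposite strand, with between 3276 and 6443 reads per sample. Whether the counting used the strand is not stated. With the overlapping genes of the table added, the log2 fold change was 0.24 for DGKA, -0.67 for DGKE and 0.15 for DGKQ.

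Levels between genes were compared per kilobase. In pcCon, DGKQ (FPKM 4.53 ± 0.271, SD, n = 3) and DGKD (4.41 ± 0.0163) led and did not differ beyond their spread. DGKZ followed with 2.42 ± 0.014, then DGKG with 1.08 ± 0.0657 and DGKA with 0.873 ± 0.0692. DGKE (0.538 ± 0.0454) and DGKH (0.524 ± 0.138) came last among the expressed genes, with overlapping samples. In pcYY2, DGKH ranked 4 of 10, directly under DGKZ, whose lowest sample (2.20) lay just above the highest of DGKH (2.17). DGKB, with 2 to 13 reads per sample, and DGKI, with a single read in all, were at or near 0 in both groups. DGKG, a relative of DGKA that ranked 4 in pcCon and 5 in pcYY2, did not pass the test, at 0.24 on the log2 scale (standard error 0.096, adjusted p = 0.151, edgeR). ETV5 overlaps DGKG on the same strand with between 1415 and 2634 reads per sample.

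DGKH made up 3.63% ± 0.907 (SD, n = 3) of the summed FPKM of the 10 family genes in pcCon, and 12.2% ± 1.55 (SD, n = 3) of that in pcYY2. The summed FPKM was 14.4 ± 0.363 in pcCon and 16.9 ± 0.911 in pcYY2. The order of the genes depends on the gene length, and the lengths behind the deposited FPKM are long. The length of DGKA was 27572 bases, which exceeds its locus of 26709 bases, whereas its longest coding transcript in GENCODE 44 has 2770. For DGKZ these lengths were 22643 and 4072 bases, and for DGKH 22741 and 17497.

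Per kilobase of the longest coding transcript, DGKZ ranked 1 in pcCon with a level of 13.5 ± 0.0777 (SD, n = 3), on the FPKM scale with this length. DGKD ranked 2 (11.8 ± 0.0439), DGKA ranked 3 (8.69 ± 0.689) and DGKQ came 4 (7.16 ± 0.429). DGKH ranked 7 in pcCon (0.682 ± 0.180) and 6 in pcYY2 (2.67 ± 0.248), and its share in the family was 1.50% ± 0.395 and 5.20% ± 0.651. DGKH was thus a minor member of the family by both lengths in pcCon, and the size of its share in pcYY2 depends on the length used. Since DGKA is under the filter of 1 only by the length used, its fold change is given beside the others.

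To place DGKH among other genes, all tested genes were ranked by the root mean square difference of their log2 CPM from that of DGKH. For this ranking, CPM are counts scaled to the sample's sum over the tested genes, adjusted by a scaling factor (TMM). The log2 CPM of each gene was centred on its mean over the 6 samples. The 5 nearest genes were YY2 (0.219), SPIN1 (0.368), KRT20 (0.386), RP5-1142A6.10 (0.413) and MZF1-AS1 (0.417), against a median of 1.04 over 12014 genes. As with DGKH, KRT20 and MZF1-AS1 passed the filter only through the pcYY2 samples, with a mean FPKM of 0.786 and 0.749 in pcCon. SPIN1, which encodes a histone reader of the spindlin family, had an FPKM of 5.15, 4.29 and 5.97 in pcCon and 20.4, 17.5 and 18.0 in pcYY2. KRT20, an intestinal keratin, had 0.537, 1.05 and 0.775 in pcCon and 2.01, 3.14 and 2.74 in pcYY2. Unlike DGKH, SPIN1 was lowest in pcCon-2 and KRT20 was highest in pcYY2-2. The other tested members of the family ranked 2959 (DGKQ, 0.966), 3374 (DGKZ, 0.977) and 3774 (DGKD, 0.987). The measure rests mainly on the difference between the groups, for which DGKH was chosen. It says nothing of shared control or of a likeness within the family.

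**Figure D3:**
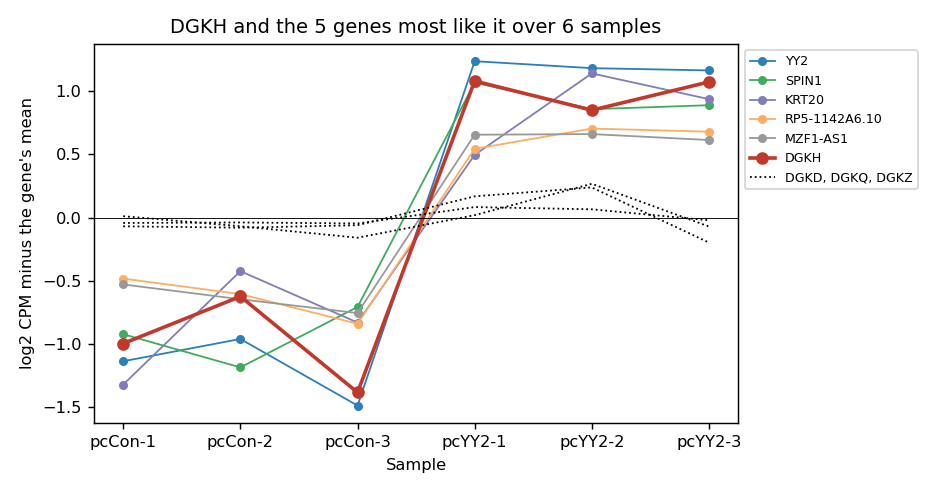
Log2 CPM of DGKH (thick red line) and of the 5 genes most like it in the 6 samples, each centred on its own mean, with DGKD, DGKQ and DGKZ as dotted lines. Lines only join the values of a gene, as the samples of a group have no order. DGKH, YY2, RP5-1142A6.10 and MZF1-AS1 are lowest in pcCon-3, SPIN1 in pcCon-2 and KRT20 in pcCon-1, and the dotted lines stay near 0.

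The genes that make, use or sense diacylglycerol were examined with 8 lists written from general knowledge. Of 95 genes in the table, 67 were tested, of which 2 were higher in pcYY2, 4 were lower and 61 did not pass the test. This is 8.96% of the tested genes, close to the 9.37% of all genes. Their median log2 fold change was 0.0079. Groups did not overlap for 11 genes higher and 13 lower in pcYY2, or 24 of 67, against 35.8% of all genes (15.9% higher and 19.9% lower).

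Of the enzymes that make diacylglycerol, LPIN1 changed most. LPIN1 encodes lipin 1, a phosphatidate phosphatase that catalyses the reverse of the kinase step. It rose from an FPKM of 1.30 ± 0.0422 (SD, n = 3) to 2.20 ± 0.125, by 0.77 on the log2 scale (standard error 0.0699, adjusted p = 0.00314). The adjusted p values of the lists are from edgeR's quasi-likelihood fit over all tested genes with the Benjamini-Hochberg method. It passed in each of 14 alternatives (adjusted p of 0.0356 or less, the largest with the replicate number as a block). The other 5 tested phosphatidate phosphatases did not pass. In 4 of them the pcYY2 samples lay below all pcCon samples, against 19.9% of the 12015 genes tested. LPIN2 had 4.25 ± 0.183 in pcCon and 3.45 ± 0.341 in pcYY2 (log2 fold change -0.28, adjusted p = 0.102). PLPP5 had 1.87 ± 0.147 and 1.42 ± 0.222 (-0.38, adjusted p = 0.127). The median log2 fold change over the 6 genes was -0.26.

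Of 6 tested phospholipase C genes, which release diacylglycerol from phosphoinositide, PLCH1 was higher, from 2.06 ± 0.0474 to 2.63 ± 0.162 (log2 fold change 0.36, adjusted p = 0.0337). It did not pass when any 1 of the 6 samples was left out (adjusted p 0.0539 to 0.106) or with the replicate block (0.104). PLCH1 also did not pass in both limma fits (0.0553 and 0.0533) and without a filter (0.0579). PLCD3 (0.20, adjusted p = 0.056) and PLCD1 (-0.31, adjusted p = 0.294) did not pass. The list of other enzymes that use or release diacylglycerol, with the acyltransferases, lipases and sphingomyelin synthases, had 1 of 8 genes called. This was SGMS2, a sphingomyelin synthase that releases diacylglycerol, lower in pcYY2 (log2 fold change -0.34, adjusted p = 0.0437). The call of SGMS2 was lost without any 1 of the 6 samples (adjusted p 0.0628 to 0.133) and with the block (0.11). It was also lost in both limma fits (0.0531 and 0.0514), without a filter (0.0858) and with the filter at 0.1 (0.0661). DAGLB (0.17, adjusted p = 0.301) and SGMS1 (-0.16, adjusted p = 0.418) did not pass.

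Downstream of the kinases, the phosphatidylinositol cycle turns phosphatidic acid back into phosphoinositide. The list written for this cycle had 16 tested genes, not all of which act in the cycle itself. Of these, CDS1, a CDP-diacylglycerol synthase that uses phosphatidic acid, was lower, from 8.07 ± 0.345 to 6.11 ± 0.22 (log2 fold change -0.39, adjusted p = 0.0204). Without pcCon-1, pcCon-2, pcCon-3, pcYY2-2 or pcYY2-3 its adjusted p was between 0.0523 and 0.0772, and with the block it was 0.0821. Its paralog CDS2 (0.18, adjusted p = 0.0648) and the kinase gene PIP5K1C (0.20, adjusted p = 0.0574) lay higher in all pcYY2 samples without passing. Of the 16 genes, the groups did not overlap for 2 higher and 3 lower, against 15.9% and 19.9% of all genes tested. Of 10 tested genes that make phosphatidic acid by other routes, 0 were called by edgeR, with 2 at an unadjusted p under 0.05 and 1, AGPAT5 (-0.33, adjusted p = 0.0958 in edgeR), called by DESeq2 (adjusted p = 0.0403). AGPAT5 was also called by edgeR without pcCon-3 (adjusted p = 0.0391). AGPAT1 (0.21, adjusted p = 0.0642) and GPAT4 (0.16, adjusted p = 0.229) did not pass.

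Of 7 tested diacylglycerol effectors, 2 were called lower in pcYY2 and 0 were called higher. Over all genes tested, 4.85% were called lower and 4.52% higher. PRKCH, which encodes protein kinase C eta, fell from 2.54 ± 0.0912 to 1.82 ± 0.0759 (log2 fold change -0.46, standard error 0.071, adjusted p = 0.0149). Its call was lost without pcCon-2 (adjusted p = 0.0623), without pcCon-3 (0.0595) and with the block (0.0649). PRKD3, which encodes protein kinase D3, fell from 2.00 ± 0.0835 to 1.50 ± 0.158 (log2 fold change -0.40, adjusted p = 0.0418). This call was lost without any 1 of the samples other than pcYY2-1 (adjusted p 0.0871 to 0.128) and with the block (0.11). It was also lost in both limma fits (0.0664 and 0.0690), without a filter (0.0619) and with the filter at 0.1 (0.0588). UNC13B (0.15, adjusted p = 0.093) did not pass. UNC13A had the largest log2 fold change of the 7 (0.65, adjusted p = 0.192), also without passing. Its FPKM was 3.07 in pcYY2-1, under the pcCon mean of 3.63, and 7.06 and 6.70 in pcYY2-2 and pcYY2-3.

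DGKH has been linked to the RAS to ERK cascade. Of 11 tested genes of that cascade, edgeR, DESeq2 and limma each called 0, and 1 had an unadjusted p under 0.05 in edgeR. ARAF (log2 fold change 0.28, adjusted p = 0.11) and MAPK3 (0.17, adjusted p = 0.182) were higher in all pcYY2 samples without passing. On this list of 11 the groups did not overlap for 3 genes higher and 0 lower, against 15.9% and 19.9% of all genes tested. Of 3 tested relatives with a similar catalytic domain, likewise 0 were called by any of these tools, with 1 at an unadjusted p under 0.05 in edgeR. These were AGK (-0.14, adjusted p = 0.181), CERK (0.14, adjusted p = 0.0806) and SPHK2 (0.08, adjusted p = 0.527).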

How the data were processed

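RNA of HCT116 cells that carried pcCon or pcYY2 (n = 3 each) was sequenced. Per their methods, the authors removed poor reads, aligned the rest to GRCh38 with TopHat and derived FPKM with Cufflinks. Their processing notes also name Bowtie2 and HTSeq. The deposited counts are whole reads per gene without normalization. The deposited FPKM follow from the counts, a fixed length per gene and the sample's total (deviation at most 0.0006% in 10859 genes), so a long length lowers the FPKM. No fold changes of the authors are in the table, and 0 value columns lacked a sample.

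Differences in counts were tested by quasi-likelihood in edgeR (edgeR 4.0.16, R 4.3.3, TMM). Genes needed a mean FPKM of 1 or more, and calls an adjusted p (Benjamini-Hochberg) of at most 0.05. A standard error is the size of the log2 fold change over the root of its F statistic. DGKA and DGKE, under this filter, were taken from the same fit with a filter at 0.1. The alternatives were other filters and scalings, DESeq2 1.42.0, limma 3.58.1 with trend on log2(FPKM + 1) or log2(FPKM + 0.1), the replicate number as a block, leaving out each sample, and summed counts. The tests were tried on simulated data. The filter at 0.1 was planned, whereas the further alternatives of DGKA and DGKE at that filter, the longest transcript and the sum with DGKZP1 were added after seeing the data. The members and lists were chosen with earlier results of these data known.

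Named were the 6 genes, the 4 other family genes, YY2, of each list every called gene or up to 3 with the smallest p, overlapping genes with at least 10 reads, and the 5 genes most like DGKH (prior count of 2 in log2 CPM, genes overlapping DGKH left out). UNC13A was named outside this rule, for the size of its change. A gene that this rule names is not reported here. Motif searches and plots used Python 3.11.15 with pandas 2.3.3 and matplotlib 3.10.9, and DGKZP1 was aligned with blastn 2.17.0. GENCODE 44 holds 97.6% of the table's identifiers. DGKQ has no window in the promoter table. The floor of 3 reads was between 0.101 and 0.198 CPM, there scaled to the full library total, and covers counting error only. With 3 samples against 3, an exact permutation test cannot give a p below 0.1, and none was used.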

Additional observations from a re-analysis of the deposited data

How the results depend on the processing

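Since DGKH was chosen from this contrast, its values are a description. Its log2 fold change lay between 1.00 (limma on log2(FPKM + 1), a scale that understates weakly expressed genes) and 2.19 over 15 alternatives, between 1.81 and 2.19 with each sample left out, and was 2.00 with the replicate number as a block. That of DGKE lay between -1.05 and -0.24. The count of DGKG summed with that of ETV5 had a log2 fold change of -0.0698. Most of these reads are from ETV5 (1415 to 2634 per sample, against 211 to 527 for DGKG). In the other 14 of 15 alternatives DGKG kept its direction.

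Over all genes, 543 were higher and 583 lower. With the replicate block these were 51 and 50, and 138 to 412 and 147 to 393 with a sample left out, the fewest without pcCon-2. Every sample except pcYY2-1 moved these counts by more than 1.5 times when left out (163 and 161 without pcCon-1, 150 and 161 without pcCon-3, 272 and 273 without pcYY2-2, 175 and 179 without pcYY2-3). Of the list genes, 2 were higher and 4 lower. The block gave 1 and 0 (9 lower at an unadjusted p under 0.05), both limma fits 1 and 2, no filter 1 and 2, and the filter at 0.1 gave 2 lower. With a sample left out they were 1 to 2 and 0 to 3 (without pcCon-2, 0 lower, 5 at an unadjusted p under 0.05). The cause was not tested. The numbers share no known pairing. Deviations from the group mean correlated at -0.0318 to -0.0175 across genes between samples of the same number and at -0.031 to 0.0569 between the others. DGKE rests on 68 to 172 reads per sample, and its standard error was 0.353, or 0.141 without pcYY2-2.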
